A study of Drosophila melanogaster with 16 samples.

Results

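UDP-glycosyltransferases are enzymes of the endoplasmic reticulum membrane that move a sugar from a UDP-sugar onto small lipophilic molecules. In insects they act on plant toxins, insecticides, pigments, odorants and hormones, and in the fly they are best known from the midgut, the fat body, the Malpighian tubules and the antenna. They form one of the conjugating steps of detoxification, between the cytochromes P450 and the transporters that carry the product out of the cell. In their names the number and letter give the family and subfamily, so *Ugt36D1* and *Ugt36E1* are closer to each other than to *Ugt49B1*.

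All genes whose symbol began with Ugt and a digit, and whose mean normalized count was above 0 in at least 1 comparison, were taken as members, which gave 35 of the 13754 genes listed. The rule used names and mean counts only, but the family was chosen with earlier results of these data known. RNA with poly(A) tails was sequenced from single *Drosophila melanogaster* embryos at stage 16, raised at 25 °C, and each embryo was a sample of its own. Mutants of the histone H2A ubiquitylation system were each compared with wild type, as 5 Asx0 embryos against 3 wild-type embryos and 4 SceI48A embryos against 4 other wild-type embryos. Asx binds and activates the deubiquitinase Calypso in the complex PR-DUB, which takes monoubiquitin off H2A, and Sce is the ligase of PRC1 that puts it on. The question for these genes is whether their RNA differed when this mark was in excess or could not be made.

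The wild type was the Oregon-R strain. Asx0 embryos were the GFP-negative progeny of parents that carried the null allele over a CyO balancer with twi-Gal4 and UAS-GFP, in a *w* stock with FRT sites and a *y+* insert, so their mothers still had a wild-type copy of *Asx*. SceI48A embryos made a catalytically dead Sce from an inserted copy in a *w* stock null for endogenous *Sce* and marked with *cu* and *sr*, in which nos-Gal4VP16 and UAS-FLP remove an *Sce+* copy in the germline. Both mutant stocks thus differed from Oregon-R in markers and inserts, so effects of the mutation and of the stock background cannot be told apart. The authors kept these embryos from a larger set because their expression profiles and morphology pointed to equal stages. RNA levels did not check either allele, as *Asx* was at 10.26 in Asx0 and 10.29 in wild-type embryos on the log2 scale (limma, adjusted p = 0.793) and *Sce* at 9.12 in SceI48A and 9.02 in wild-type embryos (limma, adjusted p = 0.381).

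Values are log2 normalized counts as deposited, and how they were normalized is not given. Genes with few reads had nearly equal values in all embryos, as after shrinkage towards each gene's mean, so their differences and their spread may be understated. Total counts per embryo were not given and the depth is unknown. Each comparison was normalized on its own, and tests were made within a comparison only. A gene was tested when its mean normalized count was at least 10 and was called when its adjusted p from limma was under 0.05. Genes are written below as higher, lower, risen or fallen only where they were called. A whole embryo was measured, so fewer cells of a type and less RNA per cell cannot be told apart. Reads of closely related neighbouring copies can be split wrongly between them, so the values of single members of such a cluster are less certain than their sum.

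The 35 genes lay on the autosomal arms only, with 11 on 2L, 5 on 2R, 2 on 3L and 17 on 3R of the dm6 assembly, and none on X or chromosome 4. When members less than 25 kb apart were joined, they fell into 18 loci. Of these, 6 held more than 1 member and 23 members between them, and 12 held a single gene. The largest was chr3R:11126597-11177910, which holds 10 members of the Ugt35, Ugt302, Ugt303 and Ugt304 families in 51.3 kb, including *Ugt35A1* (also *Ugt35a*) and *Ugt35B1* (also *Ugt35b*). Its member *Ugt35C1* lies apart from the rest and is joined by the 25-kb limit. It ends at 11128328, and the next member, *Ugt302K1*, starts at 11151026. The genes were of like size, with exons adding up to between 1513 and 3316 bases and a median of 1758 bases.

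Together the members made up a small share of the RNA of a stage 16 embryo, 0.0746% of the summed mean normalized counts in the comparison with Asx0 embryos and 0.0730% in that with SceI48A embryos. The 5 highest members held 48.1% and 47.2% of the members' own sum. Per kilobase of exon, *Ugt317A1* (also *Ugt58Fa*) was the highest in both, with a mean normalized count per kb of 908 in the Asx0 comparison and 1215 in the SceI48A comparison. These means pool mutant and wild-type embryos, so the order was also read in wild type alone, as the log2 level per kb of exon. In the wild-type embryos of the Asx0 comparison *Ugt317A1* was at 9.58 to 9.65, wholly above *Ugt302C1* at 9.23 to 9.33. The next, in order of their means, were *Ugt37D1* (9.21 to 9.34), *Ugt36D1* (9.00 to 9.32), *Ugt37C2* (8.84 to 9.25) and *Ugt37B1* (8.86 to 9.17), and from *Ugt302C1* on each overlapped with its neighbour. In the wild-type embryos of the SceI48A comparison *Ugt317A1* was at 10.24 to 10.41, *Ugt35D1* at 9.86 to 10.10 and *Ugt302C1* at 9.59 to 9.73, none of which overlapped. *Ugt37D1* (9.54 to 9.63) and *Ugt36D1* (9.51 to 9.62) came next, and each overlapped with the gene before it.

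**Figure D1:**
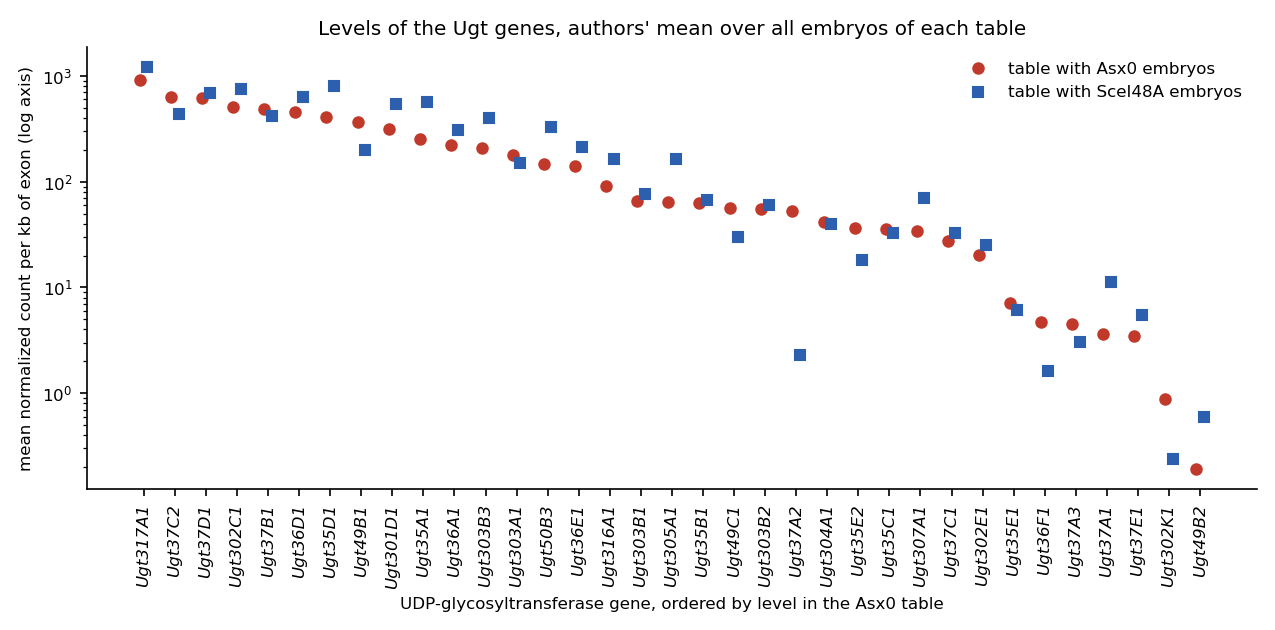
Mean normalized count per kb of exon (log axis) of the 35 Ugt genes, ordered by their level in the comparison with Asx0 embryos. Each point is the authors' mean over all embryos of 1 comparison, with circles for the Asx0 comparison and squares for the SceI48A comparison. *Ugt317A1* is highest in both at 908 and 1215 per kb, and *Ugt37A2* is the member whose points lie farthest apart.

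At the other end, 6 members stayed under the minimum in the Asx0 comparison, with means of 0.321 to 7.87, and 7 in the SceI48A comparison, with means of 0.614 to 9.71. *Ugt49B2* and *Ugt302K1* were the lowest in both. In all, 29 members were tested in the Asx0 comparison, 28 in the SceI48A comparison and 27 in both. The 5 members under the minimum in both were not tested at all.

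In Asx0 embryos 6 of the 29 tested members were higher and 8 were lower than in wild type (limma). Over all 10212 genes tested, 5.19% were higher and 6.15% lower. The median difference over the members was -0.06 on the log2 scale with quartiles of -0.33 and 0.05, and over all genes it was 0.00. Members moved apart in both directions, with a median absolute difference of 0.30 where that over all genes was 0.08. In either direction 14 were called, and 11.3% of all genes were. The values of mutant and wild-type embryos did not overlap for 6 members above and 8 below wild type, where 9.79% and 10.3% of all tested genes did so (20.1% together). Past a 2-fold difference 1 member was higher, *Ugt49B1*, and 1 lower, *Ugt35A1*, where 0.127% of all tested genes were higher and 0.313% lower past that limit (0.441% together).

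*Ugt49B1* had the largest rise. Its log2 level was 9.60, 9.40, 9.54, 9.56 and 9.67 in Asx0 embryos 1 to 5 and 8.14, 8.39 and 8.17 in the wild-type embryos. All mutant embryos lay about a full log2 unit above all wild-type embryos, and the mean difference was 1.32 (SE 0.08, adjusted p = 2.87e-06 from limma), a 2.5-fold higher level. Its neighbour *Ugt49C1* lies on the same strand of the same 4.9-kb stretch, chr2R:21212880-21217779. It was at 6.67, 6.74, 6.83, 6.83 and 6.94 in Asx0 embryos and at 6.21, 6.16 and 6.34 in wild type. These groups did not overlap either, with a difference of 0.56 (SE 0.07, adjusted p = 0.000402 from limma). Of the 11 other tested genes within 50 kb, 1 was higher and 1 lower, and their differences ranged from -0.25 to 0.26, so the pair stood above every neighbour tested there.

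The other rises were smaller. *Ugt317A1*, the most abundant member per kb, was at 10.80, 10.82, 10.86, 10.88 and 10.75 in Asx0 embryos and at 10.47, 10.55 and 10.55 in wild type, a difference of 0.30 (SE 0.05, adjusted p = 0.00308 from limma). *Ugt37A2* was at 6.55, 6.62, 6.46, 6.28 and 6.67 against 6.15, 6.04 and 6.05, a difference of 0.44 (SE 0.08, adjusted p = 0.00616 from limma). *Ugt301D1* was at 9.41, 9.31, 9.53, 9.36 and 9.34 against 8.82, 9.11 and 9.19, a difference of 0.35 (SE 0.09, adjusted p = 0.0233 from limma). In each of these genes the lowest mutant embryo was above the highest wild-type embryo. For *Ugt37C2* (also *Ugt36Ba*) the groups overlapped, since Asx0 embryo 4 at 10.05 was below wild-type embryo 1 at 10.10. Its other mutant values were 10.35, 10.33, 10.31 and 10.24, and its other wild-type values were 9.83 and 9.68, with a difference of 0.39 (SE 0.10, adjusted p = 0.0236 from limma). The call of *Ugt301D1* was lost without Asx0 embryo 3 or wild-type embryo 1 (adjusted p up to 0.0720 from limma), and that of *Ugt37C2* without Asx0 embryo 1, 2 or 3 or wild-type embryo 2 or 3 (adjusted p up to 0.0861 from limma).

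The 3 tested genes of the Ugt36 family fell together. *Ugt36A1* stands alone on 2L at chr2L:3619097-3621573. Its values were 8.72, 8.59, 8.63, 8.54 and 8.51 in Asx0 embryos and 9.50, 9.42 and 9.23 in wild type. The groups were well apart, and the level fell by 0.79 on the log2 scale (difference -0.79, SE 0.07, adjusted p = 8.16e-05 from limma). *Ugt36E1*, which is expressed in olfactory sensory neurons of the adult fly and takes part in pheromone discrimination, lies far from it beside *Ugt36D1* at chr2L:18819344-18829059. It was at 7.51, 7.57, 7.72, 7.76 and 7.89 against 8.53, 8.36 and 8.30, a difference of -0.71 (SE 0.09, adjusted p = 0.000606 from limma). *Ugt36D1* was at 9.50, 9.68, 9.70, 9.73 and 9.79 against 10.18, 10.50 and 10.37, a difference of -0.67 (SE 0.08, adjusted p = 0.000502 from limma). No mutant embryo reached the lowest wild-type embryo in any of these genes. The neighbourhood of the pair was not without change: of 11 other genes tested within 50 kb, 4 were lower and none higher, with a median of -0.07. Around *Ugt36A1* 1 of 5 was higher and none was lower. The fourth gene of the family, *Ugt36F1*, was under the minimum.

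The remaining falls lay mainly in the large 3R cluster. Of its 10 members 9 were tested in Asx0 embryos, 4 were lower, none was higher, and all 9 differences were negative, with a median of -0.17. Of 12 other genes tested within 50 kb, 1 was lower and none higher, with a median of -0.06. *Ugt35A1* had the largest fall and the widest spread. It was at 8.41, 7.48, 7.77, 8.65 and 7.75 in Asx0 embryos, a range of more than a log2 unit, and at 9.23, 9.23 and 9.27 in wild type. Each mutant embryo was below each wild-type embryo, and the difference was -1.23 (SE 0.22, adjusted p = 0.00496 from limma), a 2.35-fold lower level. Its residual SD of 0.40 was at percentile 98.7 among genes of like level. *Ugt302C1* (also *Ugt86Da*) was at 9.52, 9.79, 9.81, 9.81 and 9.82 against 10.32, 10.29 and 10.22, a difference of -0.53 (SE 0.07, adjusted p = 0.000980 from limma).

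*Ugt35C1* (also *Ugt86Dd*), at the far end of the cluster, was at 5.47, 5.46, 5.66, 5.49 and 5.48 in Asx0 embryos and at 6.29, 5.94 and 5.98 in wild type. The groups did not overlap, and the difference was -0.55 (SE 0.08, adjusted p = 0.00129 from limma). *Ugt35B1*, known for its expression in the antenna, was at 6.43, 6.47, 6.57, 6.51 and 6.55 against 6.74, 6.99 and 6.96, a difference of -0.39 (SE 0.07, adjusted p = 0.00304 from limma). The other 5 tested members of the cluster lay between -0.17 (*Ugt35E2*) and -0.03 (*Ugt303A1*) and were not called. Outside the cluster *Ugt307A1* on 2L was at 5.49, 5.32, 5.58, 5.55 and 5.46 against 5.95, 5.77 and 5.71, a difference of -0.33 (SE 0.07, adjusted p = 0.0118 from limma).

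The 15 members not called in Asx0 embryos had differences between -0.17 and 0.38. The upper end was *Ugt50B3*, at 8.98, 9.11, 8.87, 9.32 and 8.84 in Asx0 embryos and 8.44, 8.65 and 8.84 in wild type (difference 0.38, SE 0.12, adjusted p = 0.0566 from limma). Its lowest mutant value was just above its highest wild-type value, which both round to 8.84. Among the most abundant members that did not pass, *Ugt37D1* was at 10.30, 10.18, 10.29, 10.16 and 10.30 against 10.31, 10.24 and 10.17, a difference of 0.00 (SE 0.06, adjusted p = 0.968 from limma). *Ugt37B1* was at 9.79, 9.75, 9.69, 9.58 and 9.74 against 9.97, 9.66 and 9.66 (difference -0.06, SE 0.08). *Ugt35D1* was at 9.12, 9.61, 9.28, 9.15 and 9.55 against 8.91, 9.53 and 9.77 (difference -0.06, SE 0.18), with the lowest and the highest value both in wild type. That spread, a residual SD of 0.32, was at percentile 98.2 among genes of like level. The 3 members of the tandem Ugt303B cluster lay between -0.08 and -0.01 and were not called.

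**Figure D2:**
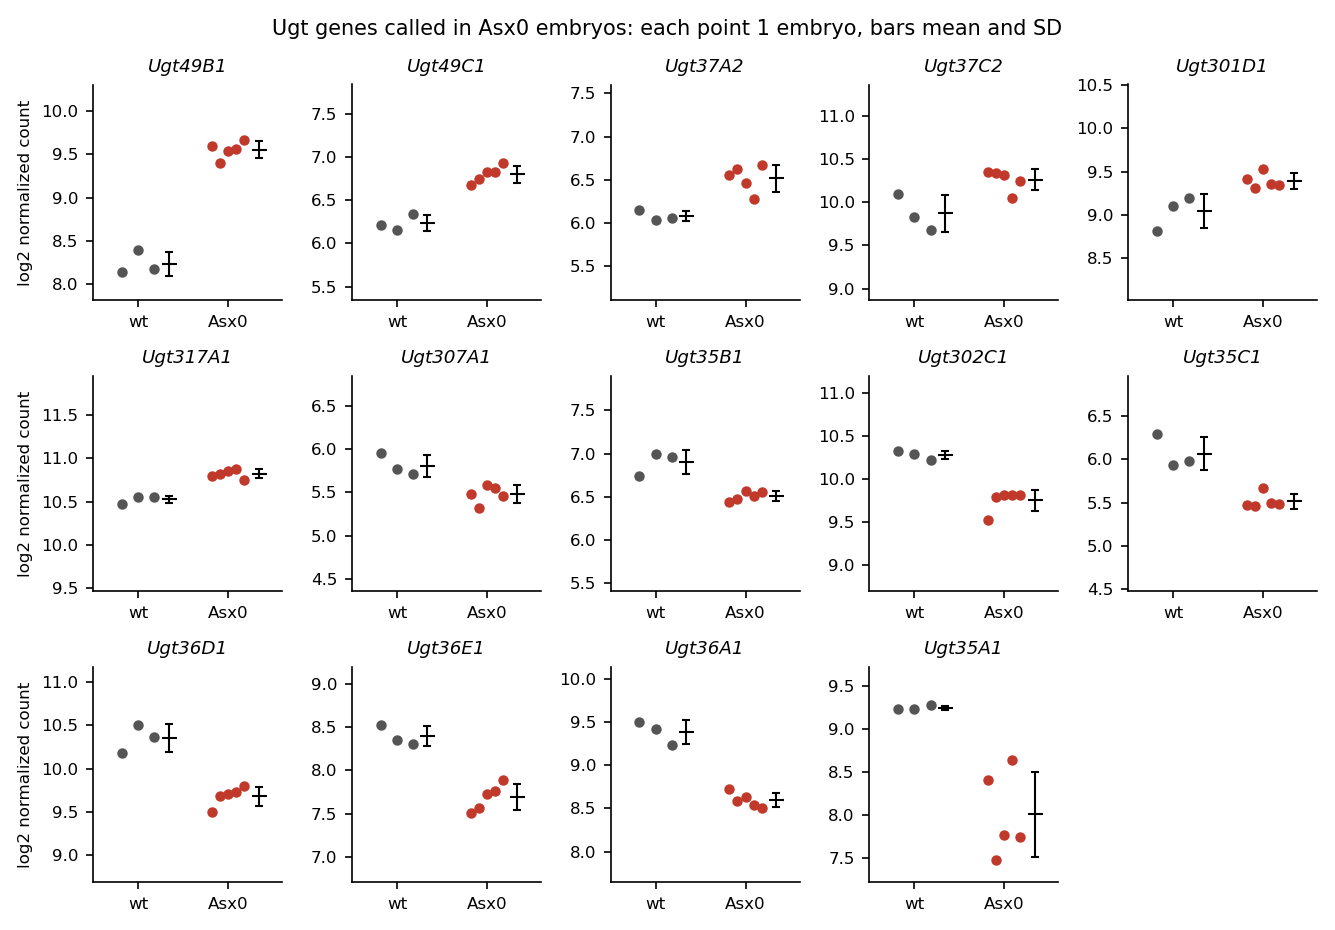
Log2 normalized count (vertical axis) of the 14 Ugt genes called in Asx0 embryos, with 3 wild-type (wt) and 5 Asx0 embryos as points and the mean with its SD as bars beside them. *Ugt49B1* lies between 9.40 and 9.67 in the mutants and between 8.14 and 8.39 in wild type, *Ugt35A1* spreads from 7.48 to 8.65 in the mutants, and the groups overlap only for *Ugt37C2*.

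In SceI48A embryos 1 of the 28 tested members was higher and 9 were lower (limma). Over all 10369 genes tested, 3.10% were higher and 4.39% lower (7.48% together). The median over the members was -0.12 with quartiles of -0.32 and 0.01, and over all genes it was 0.00. The median absolute difference was 0.22 over the members and 0.10 over all genes. Groups did not overlap for 2 members above and 11 below wild type, where 8.89% and 9.10% of all tested genes did so (18% together). No member passed a 2-fold difference with its adjusted p (limma), and 0.405% of all tested genes did, while 15 members (53.6%) and 24.7% of all genes had an unadjusted p under 0.05. In Asx0 embryos these were 17 members (58.6%) and 26.7% of all genes.

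*Ugt35D1*, a single gene near the end of 3R at chr3R:31393582-31395304, had the largest fall. It was at 9.64, 10.11, 9.53 and 9.59 in SceI48A embryos 1 to 4 and at 10.59, 10.83, 10.67 and 10.68 in wild type. The mutant embryos lay below all wild-type embryos, by a mean of 0.97 on the log2 scale (difference -0.97, SE 0.12, adjusted p = 0.000503 from limma), which is a 1.97-fold lower level. None of the 5 other genes tested within 50 kb was called, with a median of 0.12.

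The 3 tested Ugt36 genes fell here too. *Ugt36D1* was at 10.21, 10.22, 10.02 and 10.14 against 10.72, 10.80, 10.70 and 10.72 in wild type, a difference of -0.59 (SE 0.07, adjusted p = 0.000566 from limma). *Ugt36E1* was at 8.26, 8.55, 8.39 and 8.31 against 8.81, 8.71, 8.96 and 8.78, a difference of -0.44 (SE 0.09, adjusted p = 0.0109 from limma). *Ugt36A1* was at 9.32, 9.16, 9.22 and 9.13 against 9.55, 9.64, 9.53 and 9.80, a difference of -0.42 (SE 0.08, adjusted p = 0.0109 from limma). In none of them did the groups overlap. Of 11 other genes tested within 50 kb of the pair, 2 were lower and none higher.

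In the 3R cluster 8 members were tested, 3 were lower, none was higher, and all 8 differences were negative, with a median of -0.17. None of its 12 tested neighbours was called, and their median was -0.07. *Ugt35C1* had the smallest standard error of the genes called here, with values of 5.48, 5.49, 5.43 and 5.49 against 5.80, 5.78, 5.82 and 5.87 (difference -0.34, SE 0.04, adjusted p = 0.000748 from limma). Its mean normalized count was only 54.5, so that standard error may be understated by shrinkage. *Ugt35B1* was at 6.57, 6.65, 6.51 and 6.48 against 6.93, 7.00, 6.92 and 6.70, a difference of -0.33 (SE 0.07, adjusted p = 0.0195 from limma). *Ugt303A1* was at 8.10, 8.18, 8.08 and 8.00 against 8.39, 8.27, 8.33 and 8.39, a difference of -0.26 (SE 0.07, adjusted p = 0.0485 from limma). All 3 genes were without overlap between the groups. The call of *Ugt303A1* was lost when any 1 of the 8 embryos was left out (adjusted p up to 0.116 from limma). That of *Ugt35B1* was lost without SceI48A embryo 4 or wild-type embryo 2 or 3 (adjusted p up to 0.0624 from limma).

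*Ugt302C1* and *Ugt35A1*, the cluster's most abundant members, were not called in SceI48A embryos. *Ugt302C1* was at 10.43, 10.48, 10.41 and 10.33 against 10.72, 10.61, 10.69 and 10.59, a difference of -0.24 (SE 0.07, adjusted p = 0.0609 from limma), with no overlap between the groups. *Ugt35A1* was at 10.05, 10.12, 9.76 and 9.79 against 10.02, 9.98, 9.94 and 10.09, so its groups overlapped (difference -0.08, SE 0.09, adjusted p = 0.639 from limma).

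From the Ugt37 family *Ugt37B1* and *Ugt37D1* (also *Ugt36Bc*) fell. *Ugt37B1* was at 9.19, 9.34, 9.41 and 9.33 against 9.57, 9.70, 9.67 and 9.68, a difference of -0.34 (SE 0.07, adjusted p = 0.0186 from limma). *Ugt37D1* was at 10.32, 10.36, 10.12 and 10.11 against 10.51, 10.60, 10.53 and 10.54, a difference of -0.32 (SE 0.08, adjusted p = 0.0324 from limma). Both were without overlap, but both calls were lost in some of the fits that left out 1 embryo. The differences themselves changed little in these fits, from -0.37 to -0.30 for *Ugt37B1* and from -0.36 to -0.28 for *Ugt37D1*. Each such fit also called a smaller share of all tested genes than the 7.48% called with all embryos. *Ugt37B1* was not called without wild-type embryo 2, 3 or 4 (adjusted p up to 0.0622 from limma), and *Ugt37D1* was not called without SceI48A embryo 3 or 4 or wild-type embryo 2, 3 or 4 (adjusted p up to 0.0944 from limma).

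*Ugt49B1* was the only member called higher in SceI48A embryos. It was at 8.68, 8.63, 8.83 and 8.24 in the mutants and at 8.19, 8.06, 8.13 and 8.17 in wild type. The first 3 mutant embryos were well above wild type and the fourth was only just above the highest wild-type embryo. The difference was 0.46 (SE 0.11, adjusted p = 0.0288 from limma), and the call was lost when any single embryo other than SceI48A embryo 4 was left out (adjusted p up to 0.0814 from limma). *Ugt49C1* beside it was at 5.96, 5.82, 5.93 and 5.62 against 5.60, 5.78, 5.79 and 5.57, which overlapped and was not called (difference 0.15, SE 0.08, adjusted p = 0.277 from limma).

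Of the 18 members not called in SceI48A embryos, with differences from -0.24 to 0.30, 3 of the most abundant were *Ugt302C1*, *Ugt317A1* and *Ugt50B3*. *Ugt317A1* was at 10.73, 11.09, 11.05 and 11.19 against 11.31, 11.26, 11.26 and 11.14 (difference -0.23, SE 0.10, adjusted p = 0.173 from limma). *Ugt50B3* was at 10.62, 9.69, 9.73 and 9.83 against 9.96, 10.24, 10.03 and 10.16, with SceI48A embryo 1 above and the other mutant embryos below all wild-type embryos. Its difference was -0.13 with all embryos (SE 0.17, adjusted p = 0.693 from limma) and -0.34 without SceI48A embryo 1, where it was called. *Ugt305A1* had the highest uncalled difference, 0.30 (SE 0.18), and SceI48A embryo 1 at 9.01 was also its highest value, with the other mutants at 8.01, 8.00 and 8.35 and wild type between 7.94 and 8.19. *Ugt316A1* had mutant values of 8.97 to 9.26, all above its wild-type values of 8.83 to 8.95, and did not pass (difference 0.21, adjusted p = 0.126 from limma).

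**Figure D3:**
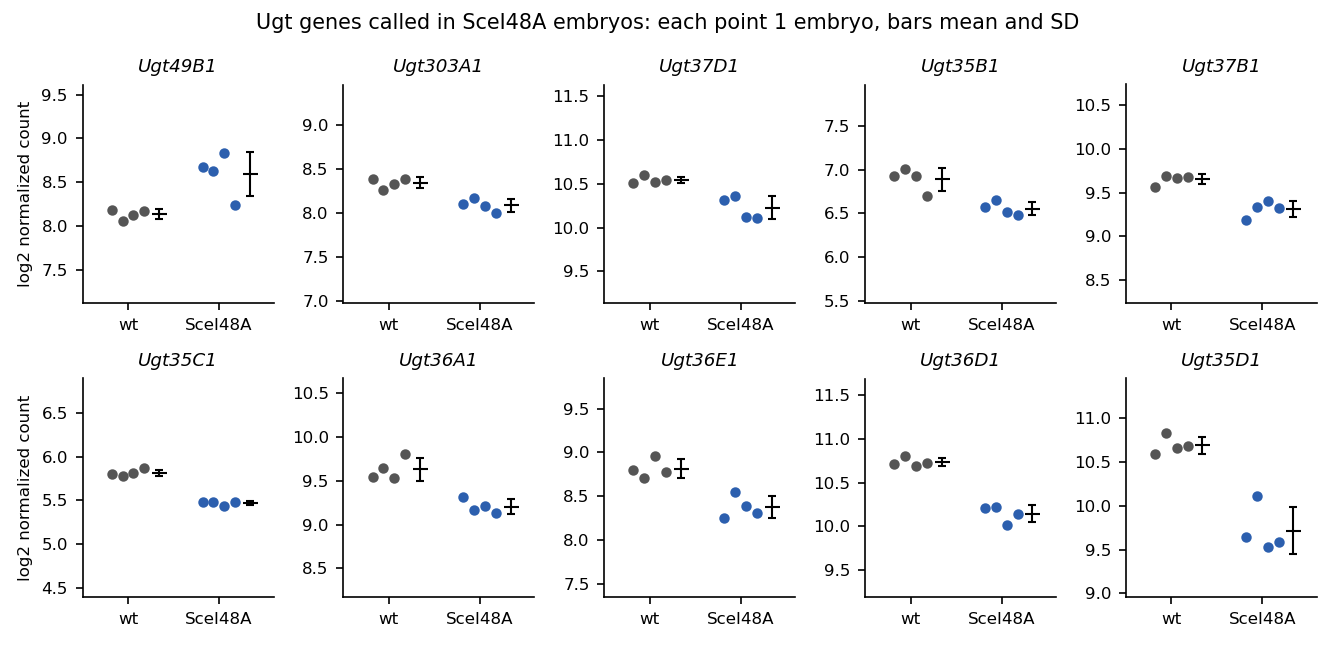
Log2 normalized count (vertical axis) of the 10 Ugt genes called in SceI48A embryos, with 4 wild-type (wt) and 4 SceI48A embryos as points and the mean with its SD as bars beside them. *Ugt35D1* lies between 9.53 and 10.11 in the mutants and between 10.59 and 10.83 in wild type, and SceI48A embryo 4 is the low point of *Ugt49B1* at 8.24.

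Set side by side, 18 of the 30 members tested in at least 1 comparison were called in at least 1 mutant, where 16% of all 10512 genes tested in at least 1 were. Among the 27 members tested in both, 5 were lower in both (*Ugt36A1*, *Ugt36D1*, *Ugt36E1*, *Ugt35B1* and *Ugt35C1*), 1 was higher in both (*Ugt49B1*), and none was called in opposite directions. Over the 10069 genes tested in both, 1.57% were lower in both and 0.735% higher in both. Only 25 of these genes were called in opposite directions, so none among 27 members was no departure from all genes. The wild-type embryos of the comparisons were different samples of the same strain. The sign of the difference was the same in 20 of the 27 members (74.1%) and in 61.3% of all genes. For the Ugt36 genes the differences in Asx0 and SceI48A embryos were -0.79 and -0.42 for *Ugt36A1*, -0.67 and -0.59 for *Ugt36D1*, and -0.71 and -0.44 for *Ugt36E1*.

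Of the members called in Asx0 embryos only, 4 were higher (*Ugt37C2*, *Ugt301D1*, *Ugt49C1* and *Ugt317A1*) and 3 were lower (*Ugt307A1*, *Ugt302C1* and *Ugt35A1*) among those tested in both. In SceI48A embryos only, 4 were lower (*Ugt37B1*, *Ugt37D1*, *Ugt303A1* and *Ugt35D1*). *Ugt35A1* and *Ugt35D1* had the most unlike values, with -1.23 in Asx0 and -0.08 in SceI48A embryos for the former and -0.06 and -0.97 for the latter. Whether an effect differed between the mutants was not tested for any gene.

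**Figure D4:**
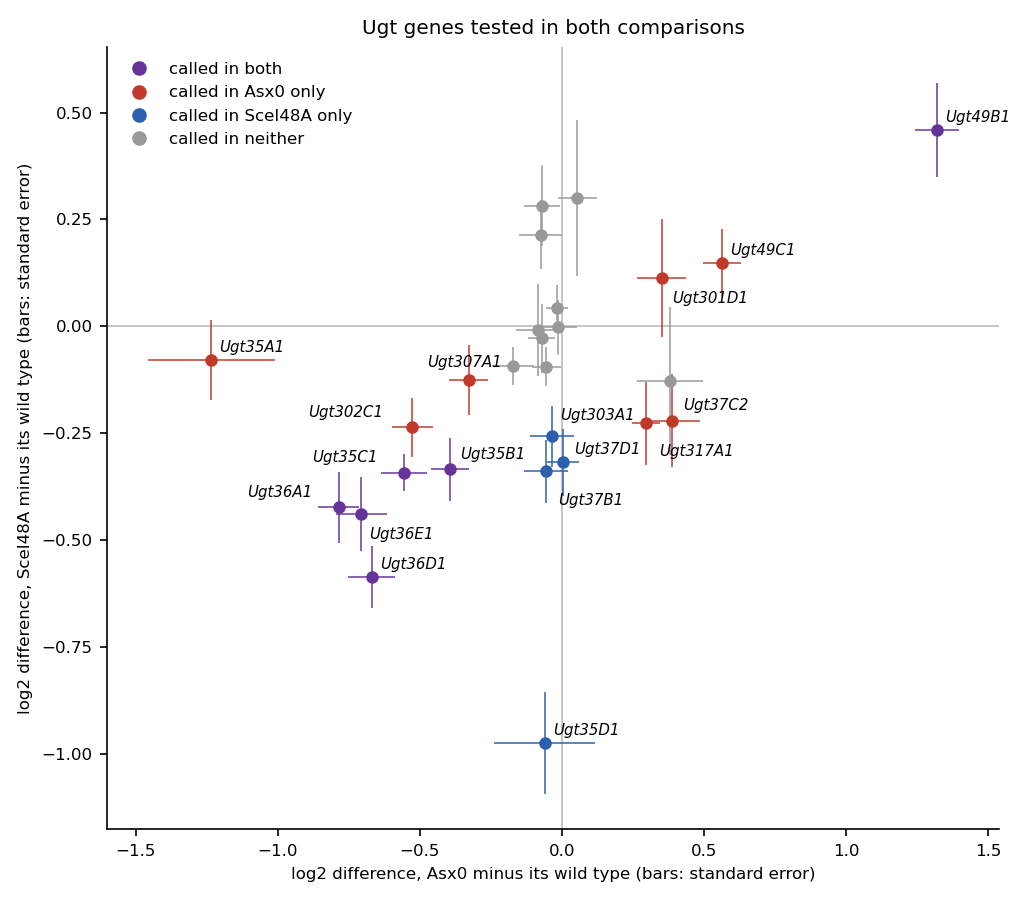
Log2 difference from wild type in SceI48A embryos (vertical axis) against that in Asx0 embryos (horizontal axis) for the 27 Ugt genes tested in both, with standard errors as bars and colours for where a gene was called. The 5 genes lower in both sit at lower left, *Ugt49B1* is alone at upper right with 1.32 and 0.46, and *Ugt35A1* and *Ugt35D1* lie near 1 axis each.

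By family, the Ugt36 genes had 3 of 3 tested members lower in both mutants, with median differences of -0.71 in Asx0 and -0.44 in SceI48A embryos. The Ugt35 genes had 3 of 6 lower in Asx0 and 3 of 5 lower in SceI48A embryos, and every tested Ugt35 gene had a negative difference in both, with medians of -0.28 and -0.33. The tested Ugt49 genes were 2 of 2 higher in Asx0 and 1 of 2 higher in SceI48A embryos. The Ugt37 genes went either way: 2 of 5 were higher and none lower in Asx0 embryos, while 2 of 5 were lower and none higher in SceI48A embryos. Of the Ugt303 genes none of 4 was called in Asx0 and 1 of 4 was lower in SceI48A embryos. Families share neighbours as well as sequence, so their members are not independent of each other.

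**Figure D5:**
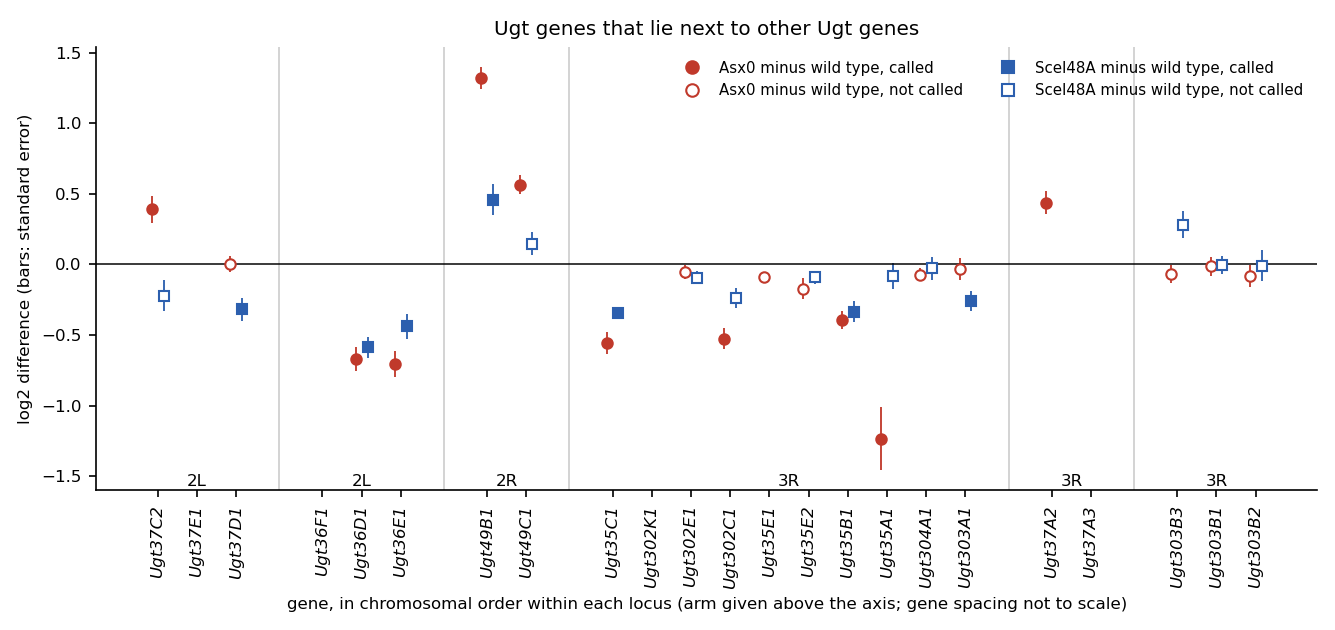
Log2 difference from wild type, with standard errors as bars, of the Ugt genes in the 6 loci that hold more than 1 member, in chromosomal order. Circles are Asx0 and squares SceI48A embryos, filled where called, and a gene with no symbol was under the minimum. All tested genes of the 10-gene 3R cluster lie below 0, the Ugt36 pair on 2L is lower in both mutants, and the Ugt49 pair on 2R is above 0.

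By arm, the 5 members on 2R had 3 higher and none lower in Asx0 embryos with a median of 0.38, where 5.94% of all genes tested on 2R were higher and 7.00% lower with a median of -0.01. In SceI48A embryos 1 of those 5 was higher and none lower, where 3.84% of genes on 2R were higher and 4.97% lower. The members on 2L had 2 higher and 4 lower of 8 in Asx0 embryos, where 6.08% of genes on the arm were higher and 6.80% lower. In SceI48A embryos 5 of 9 were lower and none higher on 2L, where 4.99% of genes were lower. Those on 3R had 1 higher and 4 lower of 14 in Asx0 embryos, where 4.67% of genes were higher and 5.06% lower, and 4 lower of 12 in SceI48A embryos, where 4.17% were lower.

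Genes that supply the UDP-sugars used by these transferases, both enzymes and carriers such as *frc*, were listed as 19 genes, all of them tested. Of these, 26.3% were called in Asx0 and 15.8% in SceI48A embryos, beside 11.3% and 7.48% of all genes. In Asx0 embryos 2 were higher and 3 lower, with a median of -0.09. They were *frc* (0.33), which carries UDP-sugars into the Golgi and endoplasmic reticulum, and *mmy* (0.25), which makes UDP-N-acetylglucosamine, on the one side. On the other were galactokinase, *Galk* (-0.60), *UGP* (-0.38), which makes UDP-glucose, and *Gfat1* (-0.28), the first enzyme of the hexosamine pathway. In SceI48A embryos *frc* was higher (0.31), and *Galk* (-0.43) and *sgl* (-0.40), the UDP-glucose dehydrogenase that makes UDP-glucuronate, were lower, with a median of -0.05. Of 19 other enzymes that use UDP-sugars, 1 was higher in Asx0 embryos (*egh*, 0.41), none was lower, and none was called in SceI48A embryos, where 6 (31.6%) had an unadjusted p under 0.05 beside 24.7% of all genes (limma).

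Other genes of detoxification were read against the 11.3% of all genes called in Asx0 and the 7.48% called in SceI48A embryos. Of 11 regulators, which include the xenobiotic factors of the cap-n-collar and nuclear receptor classes, *maf-S* was lower in Asx0 embryos (-0.33) and *EcR*, the ecdysone receptor, was higher in SceI48A embryos (0.42). Of 10 efflux transporters and sulfotransferases, 2 were lower in Asx0 embryos, the ABC transporter gene with the ID FBgn0010549 (-1.42) and *MRP* (-0.39), and none was higher. The former varied among the wild-type embryos (SD 0.66, n = 3). In SceI48A embryos *Mrp4* (0.48) and *MRP* (0.32) were higher and the sulfotransferase *St4* was lower (-0.27), while FBgn0010549, at -2.05, was not called (SE 0.72, adjusted p = 0.104 from limma). The transporter *MRP* was thus called in opposite directions in the mutants.

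Markers of tissues that use Ugt genes were read beside them. Of 12 midgut markers 8 were tested in Asx0 embryos, 4 were lower, led by the protease *Jon65Aiii* (-2.22), and 1 was higher (*LManI*, 0.35). The mean log2 level of the list was 7.00 to 7.11 in Asx0 embryos and 7.43 to 7.65 in wild type. In SceI48A embryos 2 of 9 were lower, *Jon65Aiii* (-1.09) and *Amy-d* (-0.16), none was higher, and the list stood at 6.77 to 7.10 against 7.18 to 7.26. Called midgut markers were 62.5% in Asx0 and 22.2% in SceI48A embryos, beside 11.3% and 7.48% of all genes. The list mean thus lay lower in every mutant embryo than in every wild-type embryo in both comparisons. Single markers lay wholly below wild type in 5 of 8 and 3 of 9 cases, beside 10.3% and 9.10% of all tested genes. The mean log2 level of the tested Ugt genes did not overlap either, at 7.71 to 7.77 against 7.80 to 7.84 and at 8.02 to 8.14 against 8.20 to 8.21. Such separation was not particular to these lists. In Asx0 embryos the UDP-sugar supply list (10.25 to 10.36 against 10.37 to 10.42) also lay wholly below wild type. So did the efflux and sulfotransferase list (8.51 to 8.60 against 8.65 to 8.77). Both overlapped with wild type in SceI48A embryos, where the other enzymes that use UDP-sugars lay wholly above it (9.37 to 9.51 against 9.32 to 9.35). The part of the midgut in the Ugt differences was not tested. *Mal-A1*, *betaTry* and *Jon99Ci* were under the minimum in both comparisons.

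Fat body markers had 2 higher and 2 lower of 9 in Asx0 embryos and 1 higher and 1 lower of 10 in SceI48A embryos, with overlapping list levels. These were 44.4% of the markers in Asx0 embryos, beside 11.3% of all genes, and 20% in SceI48A embryos, beside 7.48%. Their differences ran from -0.51 to 0.67 and from -0.72 to 0.64, so single markers moved in both directions. Malpighian tubule markers had 2 higher of 11 and 1 higher of 10, *ZnT35C* being called in both (0.83 and 1.03), and none lower. These were 18.2% and 10% of the markers, beside 11.3% and 7.48% of all genes. None of the 6 tested chemosensory markers was called in either mutant by limma, and 2 of them (33.3%) had an unadjusted p under 0.05 in each, beside 26.7% of all genes in Asx0 and 24.7% in SceI48A embryos. Epidermis and cuticle markers had 1 higher and 3 lower of 12 in Asx0 embryos, down to -1.14 for *Lcp65Ag1*, and 1 higher and 2 lower of 12 in SceI48A embryos. Called markers were thus 33.3% and 25%, beside the same 11.3% and 7.48% of all genes. The 7 cuticle genes were taken as a measure of developmental progress, on the untested assumption that their RNA rises as the embryo matures. Their mean level was 12.26 to 12.39 in Asx0 embryos and 12.44 to 12.64 in wild type, without overlap. It was 11.95 to 12.40 in SceI48A embryos and 12.25 to 12.50 in wild type. Single genes were mixed. In Asx0 embryos 3 of the 7 were lower (42.9%, beside 11.3% of all genes called) and none higher. Their differences ran from -1.14 to 0.47, with 5 negative and 2 positive. In SceI48A embryos 2 were lower (28.6%, beside 7.48%) and none higher, with differences from -0.52 to 0.10.

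With that cuticle level as a covariate, 1 member was higher and 4 were lower in Asx0 embryos (*Ugt49B1*, *Ugt36A1*, *Ugt36E1*, *Ugt35C1* and *Ugt302C1*), and over all genes 1.22% were called (limma). In SceI48A embryos 1 was higher and 4 were lower (*Ugt49B1*, *Ugt36A1*, *Ugt36D1*, *Ugt35C1* and *Ugt35D1*), and 3.85% of all genes were called. Since the cuticle level did not overlap between Asx0 and wild-type embryos, a difference in developmental progress and the genotype cannot be told apart there. The difference of *Ugt49B1* was 1.59 with the covariate and 1.32 without it, and that of *Ugt35A1* was -0.93 and -1.23 (adjusted p = 0.463 with the covariate, limma). Embryos also differed in the level of *msl-2* over *Sxl*, genes of dosage compensation and sex determination. Its log2 value was -3.69 in Asx0 embryo 1 and between -2.53 and -2.37 in the others, and -3.94, -2.39 and -3.90 in their wild-type embryos, while it was between -3.74 and -2.02 in SceI48A embryos and between -3.93 and -1.73 in wild type. With it as a covariate *Ugt301D1* and *Ugt307A1* in Asx0 embryos and *Ugt303A1* in SceI48A embryos were no longer called.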

How the data were processed

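Single-embryo RNA-seq was analysed from the deposited tables, 1 per mutant with its own wild-type embryos. Per the supplement, the authors quantified transcripts with Salmon and summed them to genes, and DESeq2 served for their tests. The submitters' processing notes name dm6, Salmon, DESeq2 and deepTools. The authors deposited log2 normalized counts per embryo, whose normalization is not given in the sources used here and whose low genes show nearly equal values, as after shrinkage. The deposited mean normalized count of each gene is a signal averaged over all embryos of a table. Columns with the authors' fold changes, standard errors and p-values were not used. Total counts per embryo were not given.

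limma 3.58.1 in R 4.3.3 was fitted within each table (empirical Bayes with a variance trend, two-sided, Benjamini-Hochberg adjustment over all genes whose mean normalized count reached 10), and the fit was tested on simulated data. Exon lengths and positions came from the Ensembl annotation of the assembly, older names from RefSeq, and 33 of 13754 gene IDs had no symbol. All members could be named, with values in every embryo for called members and for the 3 most abundant uncalled members of each table, and *Ugt316A1*, *Ugt305A1*, and *Ugt50B3* in Asx0 embryos, were named after their values were seen. Of other lists at most 3 called genes per direction were named. Members and lists were chosen with earlier results of these data known. Alternatives were no filter, a mean of at least 50, robust variances, no trend, quantile normalization, median centring, embryo weights, the replicate number as a block, *msl-2* minus *Sxl* and the cuticle level as covariates, and each embryo left out in turn.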

Additional observations from a re-analysis of the deposited data

Results flagged for a closer look

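In 7 of 85 groups of 4 or 5 embryos, 1 embryo lay far from the others of its group by Dixon's criterion, which chance alone meets in about 1 in 20 groups. Among Asx0 embryos, embryo 3 was high for *Ugt35C1* at 5.66, with the others between 5.46 and 5.49, and embryo 1 was low for *Ugt302C1* at 9.52, with the others between 9.79 and 9.82. Both genes were also called without these embryos. Among SceI48A embryos, embryo 3 was high for *Ugt307A1* at 6.83 (others 6.52 to 6.57) and low for *Ugt35C1* at 5.43 (others 5.48 to 5.49). SceI48A embryo 4 was high for *Ugt301D1* at 10.53 (others 9.90 to 9.99), and SceI48A embryo 1 was high for *Ugt50B3* at 10.62 (others 9.69 to 9.83). In the wild-type embryos of the SceI48A comparison, embryo 1 was low for *Ugt37C1* at 5.68 (others 5.81 to 5.84).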

How the results depend on the processing

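No called member changed direction under the 18 alternatives of each comparison. Under all of them 5 of the 14 calls in Asx0 embryos and 4 of the 10 in SceI48A embryos were kept, and 12 and 5 were kept whichever embryo was left out. Without 1 embryo, the counts ran from 4 to 7 higher and 8 to 9 lower in Asx0 embryos, and from 0 to 1 higher and 5 to 10 lower in SceI48A embryos, with the 5 reached without wild-type embryo 3. In both comparisons every fit without 1 embryo also called fewer of all tested genes than the fit with all embryos. A lost call thus need not mean that the omitted embryo carried the difference. The cuticle covariate left 1 higher and 4 lower in Asx0 and 1 higher and 4 lower in SceI48A embryos. Embryo weights gave 2 higher and 11 lower in SceI48A embryos. Median centring gave 425 genes higher and 343 lower over all genes in SceI48A embryos, where the values as deposited gave 321 and 455, and 1 member higher and 7 lower. In Asx0 embryos it gave 644 genes higher and 554 lower in place of 530 and 628, and the members' counts stayed at 6 and 8. The cause of these changes was not tested.

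Replicate numbers did not pair the embryos, since the correlations of same-numbered embryos' deviations ran from -0.0890 to 0.156 in the Asx0 and from -0.130 to 0.107 in the SceI48A comparison. With the number as a replicate block, 5 members were higher and 7 lower in Asx0 embryos, and 0 higher and 7 lower in SceI48A embryos (limma), with 248 and 406 genes called over all in the former and 152 and 294 in the latter. Depth per embryo is unknown and the values of low genes look shrunken, so small differences of the lowest members could not be read.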

Other observations

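*Ugt37A2* was the member whose wild-type level differed most between the comparisons. In the Asx0 comparison it was at 6.04 to 6.15 in wild type and 6.28 to 6.67 in Asx0 embryos on the log2 scale, and in the SceI48A comparison it was at 1.92 to 1.96 in wild type and 1.92 to 1.93 in SceI48A embryos. The authors' mean normalized count was 89.6 in the former and 3.89 in the latter, 23.0 times lower. Each comparison was normalized alone, and the median shift of the wild-type level from the Asx0 to the SceI48A comparison over 10512 genes was 0.43, with 95% of genes between -1.11 and 1.47. For *Ugt37A2* it was -4.13, and 18 genes, *Ugt37A2* among them, had a shift as low or lower. Both sets of wild-type embryos are given as the same strain.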
